A study of Mus musculus with 22 samples.

Results

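Cytokines secreted by T helper cells fall into families defined by the receptor chains they share, and 10 such genes outside the Il4 to Il13 cluster are described here in mouse TH2 cells exposed to calcitriol, the active hormone made from vitamin D. The genes were taken by symbol: Il3, Csf2, Il9, Il22, Il24, Il21, Lif, Osm, Il6 and Il31, 10 of the 49671 genes in the count table, each matched to a single Ensembl identifier. In the calcitriol group, wild-type (WT) TH2 cells received 100 nM calcitriol for the final 24 hours of culture, and in the vehicle group WT TH2 cells received 2% ethanol. Each group had 11 libraries of total RNA taken at day 5 of polarization, a culture that drives naive T helper cells toward the type 2 cytokine programme. All cells came from Balb/c mice, male and female, obtained at 6 to 8 weeks of age and bred for 2 generations on feed holding 400, 1000 or 4000 IU of vitamin D3 per kg. The labels tie no library to a mouse, sex, diet or culture, and they do not say how much ethanol the calcitriol cultures held. The p-values below are therefore set against differences among libraries, some of which may be technical. No cytokine protein was measured.

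IL-3 and GM-CSF (the product of Csf2) are growth and survival factors for mast cells, basophils and other myeloid cells, and both signal through a shared beta chain and the kinase JAK2. IL-9 and IL-21 use the common gamma chain: IL-9 is known for mast cell growth and mucus production in allergic airways, and IL-21 for help to B cells. IL-22 and IL-24 belong to the IL-10 family and act mainly on epithelium, while IL-6, LIF and oncostatin M (Osm) signal through gp130, encoded by Il6st. IL-31, an itch-inducing cytokine of TH2 cells, pairs its own receptor chain with the oncostatin M receptor. Activated T cells switch such genes on through NFAT and AP-1, factors that follow T cell receptor signals, and many of the messages carry AU-rich elements in the 3′ untranslated region that shorten their life.

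Sequence upstream of the start site is shown for Il3, Csf2 and Il9, the leading genes of the group and all lower with calcitriol. Each is the 250 bases before the start annotated by RefSeq (GRCm38.p6), read 5′ to 3′ on the gene's own strand. Capitals mark the NFAT core GGAAA on either strand (TTTCC where it lies on the other) and the AP-1 motif TGANTCA.
Il3, chr11:54267280-54267529, - strand: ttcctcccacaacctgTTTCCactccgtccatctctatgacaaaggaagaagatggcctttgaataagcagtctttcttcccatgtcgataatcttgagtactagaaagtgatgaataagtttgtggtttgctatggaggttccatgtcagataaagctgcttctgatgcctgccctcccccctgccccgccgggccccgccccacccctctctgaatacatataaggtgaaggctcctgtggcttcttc
Csf2, chr11:54249900-54250149, - strand: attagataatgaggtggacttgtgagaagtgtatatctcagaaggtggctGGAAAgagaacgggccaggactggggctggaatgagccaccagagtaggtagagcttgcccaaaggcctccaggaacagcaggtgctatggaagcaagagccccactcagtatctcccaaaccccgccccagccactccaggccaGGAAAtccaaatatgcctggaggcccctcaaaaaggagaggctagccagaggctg
Il9, chr13:56482258-56482507, - strand: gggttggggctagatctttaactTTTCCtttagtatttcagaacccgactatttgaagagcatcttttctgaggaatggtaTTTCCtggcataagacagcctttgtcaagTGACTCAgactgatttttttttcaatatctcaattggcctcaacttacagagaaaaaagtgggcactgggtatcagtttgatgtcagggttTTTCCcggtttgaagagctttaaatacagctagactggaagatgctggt
The RefSeq start of Csf2 lies upstream of its start in GENCODE, so its window covers sequence farther from the gene body than the others. The window begins at 54249900 and leaves out the bases just before the GENCODE start at 54249667, where motifs were not counted. The NFAT core occurred 1 time in the Il3 window, 2 times in that of Csf2 and 3 times in that of Il9. Of 32817 RefSeq windows of this length, 55.6% hold at least 1 copy and 21.4% at least 2. An AP-1 motif was present in the Il9 window and absent from those of Il3 and Csf2, against 6.75% of all windows with at least 1. Among the other members with a window in the table (8 of 10 in all), Il6 and Lif each held an AP-1 motif. A DR3 element, the direct repeat bound by the vitamin D receptor, was in none of the 8 windows and in 0.0396% of all windows. An element this rare is missing from nearly any 8 windows, so its absence sets these genes apart in no way. These matches describe letters within 250 bases, not binding.

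Short stretches of the 3′ untranslated region are shown because they hold the AU-rich pentamer ATTTA (capitals), the best known of the decay signals in cytokine messages. For each gene the stretch is the 30 bases with the most copies, on the gene's strand (GRCm38, GENCODE M21).
Il3, chr11:54265303-54265332, - strand: atgccatcaaatgtcttatcaATTTAtcta
Csf2, chr11:54247325-54247354, - strand: taaatATTTATTTATTTATTTATTTAtttt
Il9, chr13:56479326-56479355, - strand: tgctATTTAttctATTTAttgaATTTAcaa
Il22, chr10:118209883-118209912, + strand: ttATTTAttataagtatacattttATTTAt
Lif, chr11:4272414-4272443, + strand: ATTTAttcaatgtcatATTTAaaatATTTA
Csf2 had 9 copies of ATTTA in a 3′ untranslated region of 317 bases, the most per base after Il9, which had 3 in 86 bases. Il3 had 1 copy in the 101 bases annotated. The stretch shown for Il3 reaches the end of its gene model, so any sequence beyond that end was not counted. Over 10753 tested coding genes the median was 2 copies, and 8.76% had at least the 9 of Csf2. Lif had 7 copies in 3180 bases, Il22 had 6 in 521, Il21 had 9 in 2578 and Il24 had 4 in 381. Il6 had the most copies, 10 in 1668 bases, while Osm had 6 in 1017 and Il31 had 5 in 261. At least 1 copy was present in 69.4% of the tested coding genes and at least 3 copies in 38.0%. The part of the pentamer in the changes with calcitriol was not tested.

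The libraries held 3214171 to 20258430 counts. T cell receptor and TH2 genes were present in both groups: Gata3, the lineage-defining factor, averaged 97.2 ± 15.1 CPM (counts scaled by TMM-adjusted library size) with calcitriol and 86.5 ± 9.56 CPM with vehicle (SD, n = 11 each). The TH2 surface markers Il1rl1 and Ptgdr2 were below the low-count filter. Mast cells and basophils, other sources of IL-3 and IL-9, left almost no signal, since the 7 genes of their marker list summed to 0 to 1.43 CPM with calcitriol and 0.0964 to 1.12 CPM with vehicle, with Tpsb2 at 0 counts. Replicates 1 and 2 of both groups stood apart from the others on the second principal component (14.3% of the variance, after 58.6% for the first, which separated the groups), and values with and without these 4 libraries are given where they differ. Replicate numbers follow the order of deposit and link no library of the calcitriol group to a library of the vehicle group.

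Of the 10 genes, 8 had enough counts to be tested. With calcitriol, 4 of them fell (Il3, Csf2, Il9 and Il22), 1 rose (Lif) and 3 did not pass the threshold (Il24, Il21 and Osm), by edgeR's quasi-likelihood test with an adjusted p under 0.05 over all 11905 genes tested. Of all tested genes, 31.5% were called, with 16.1% higher and 15.5% lower. Without replicates 1 and 2 of both groups, 4 members were lower and 0 higher, where 29.2% of all tested genes were called, 14.4% lower and 14.8% higher, and at an unadjusted p under 0.05 the members higher also numbered 0. Within those replicates alone, 2 libraries per group picked after seeing the data, 4 members were lower and 3 higher (Il24, Lif and Osm). There 14.3% of tested genes were called, 5.92% lower and 8.42% higher. With the most alike libraries of a group summed into 7 sets per group, 4 members were lower and 0 higher, where 22.4% were called, 10.9% lower and 11.6% higher, and 1 member was higher at an unadjusted p under 0.05. The median log2 change (calcitriol over vehicle) over the 8 tested members was -0.99, beside -0.01 over all tested genes. It lies between the members that fell (-3.00 to -1.89) and the rest (-0.09 to 0.30), so it describes no shift shared by all. The filter keeps a gene that is high enough in either group, so the 8 are not all members. Il3 and Csf2, with medians of 0.285 and 1.68 CPM with calcitriol, passed it through their vehicle levels, which favours a count of lower members. In the fit without a filter 4 members were lower and 1 higher, where 3688 of 27301 genes were called. Il6 and Il31 had too few counts for this test. In bulk RNA, fewer cells that make a transcript and less of it per cell cannot be told apart.

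**Figure D1:**
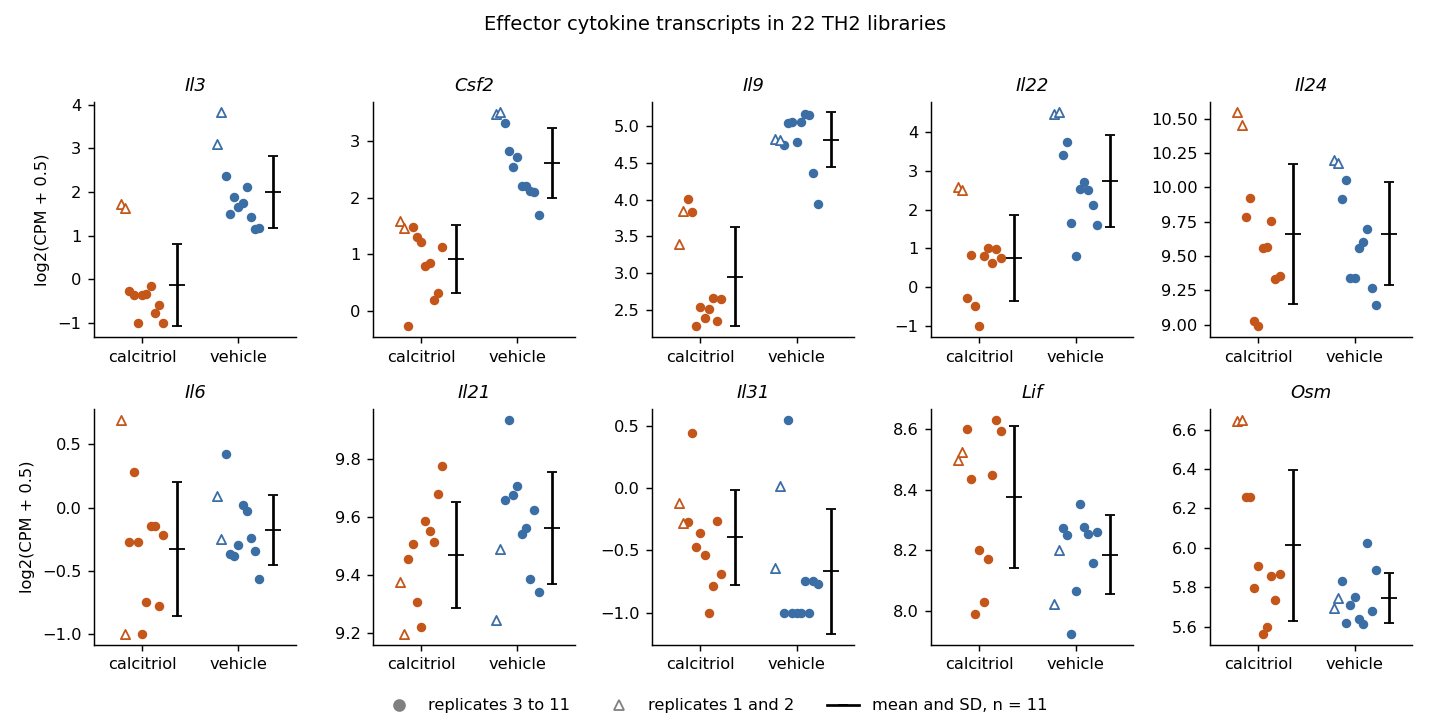
Level of each of the 10 cytokine genes in the 22 libraries as log2(CPM + 0.5), calcitriol at the left of each panel and vehicle at the right, with circles for replicates 3 to 11, triangles for replicates 1 and 2, and a bar for the mean and SD. All 11 calcitriol libraries lie below every vehicle library for Csf2 and 10 of 11 do for Il9, while the groups overlap across most of their range for Il24 and Il21.

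Il3 and Csf2 are the myeloid growth factor genes of the group and sit side by side on the minus strand of chromosome 11. Il3 (ENSMUSG00000018914, chr11:54265303-54267277) ran from 0 to 2.80 CPM with calcitriol, with a median of 0.285, against 1.74 to 13.6 CPM with vehicle, with a median of 2.83. In 9 of 11 calcitriol libraries the level was under that of every vehicle library, and 2 of the calcitriol libraries had no count. The overlap came from calcitriol replicates 1 and 2, at 2.80 and 2.58 CPM, whereas the other calcitriol libraries had at most 0.402 CPM. Vehicle replicates 1 and 2 were likewise the highest of their group, at 8.04 and 13.6 CPM, with the others at 1.74 to 4.63 CPM. Mean levels were 0.655 ± 1.01 CPM with calcitriol and 4.26 ± 3.59 CPM with vehicle (SD, n = 11 each), from 44 and 353 counts in all. The log2 change was -3.00 ± 0.57 (SE), 8.02-fold lower with calcitriol, at an adjusted p of 0.000276 by edgeR's quasi-likelihood test. The size of the change differed with the libraries used, at -3.72 ± 0.35 without replicates 1 and 2 of both groups and -1.97 ± 0.36 within these 4 alone. Leaving out calcitriol replicate 1 by itself gave -3.75.

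Csf2 (ENSMUSG00000018916, chr11:54247271-54249667) was the member whose groups separated completely. It ran from 0.329 to 2.52 CPM with calcitriol, with a median of 1.68, against 2.73 to 10.9 CPM with vehicle, with a median of 5.34. All 11 calcitriol libraries lay below all 11 vehicle libraries, a separation in that direction seen for 1.59% of all tested genes. Means were 1.53 ± 0.73 CPM with calcitriol and 6.17 ± 2.94 CPM with vehicle (SD, n = 11 each), from 131 and 533 counts. On the log2 scale Csf2 changed by -2.04 ± 0.29, 4.11-fold lower with calcitriol, at an adjusted p of 3.62e-06 by edgeR's test. As with Il3, vehicle replicates 1 and 2 were highest, at 10.7 and 10.9 CPM. The change was nonetheless near-equal without the 4 libraries (-1.93 ± 0.28) and within them (-2.14 ± 0.34).

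Il9, the mast cell growth factor gene (ENSMUSG00000021538, chr13:56479277-56482246, minus strand), had the highest level of the 4 that fell. It ran from 4.38 to 15.6 CPM with calcitriol, with a median of 5.76, against 14.8 to 35.5 CPM with vehicle, with a median of 27.9. In 10 of 11 calcitriol libraries it was below every vehicle library. Calcitriol replicates 1 to 4 had 10.1 to 15.6 CPM and the other 7 had 4.38 to 5.85 CPM, while among vehicle libraries the lowest 2 were replicates 10 and 11, at 20.0 and 14.8 CPM. Means were 8.10 ± 4.35 CPM with calcitriol and 28.4 ± 6.42 CPM with vehicle (SD, n = 11 each), from 661 and 2588 counts. Il9 thus changed by -1.89 ± 0.23 on the log2 scale, 3.70-fold lower with calcitriol, at an adjusted p of 7.18e-07 by edgeR's test. It was -2.03 ± 0.26 without the 4 separate libraries and -1.27 ± 0.20 within them.

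Il22, whose product acts on epithelial cells (ENSMUSG00000074695, chr10:118204942-118210047, plus strand), fell with more overlap. It ran from 0 to 5.46 CPM with calcitriol, with a median of 1.24, against 1.25 to 22.2 CPM with vehicle, with a median of 5.28. Only 6 of 11 calcitriol libraries were below every vehicle library, and 10 of 11 were below the vehicle median. Replicates 1 and 2 had 5.46 and 5.15 CPM with calcitriol and 21.6 and 22.2 CPM with vehicle, the highest values of each group. Its log2 change was -2.44 ± 0.55, 5.42-fold lower with calcitriol, at an adjusted p of 0.00153 by edgeR's test. Without the 4 libraries it was -2.49 ± 0.43 and within them -2.02 ± 0.24.

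The GRCm38 annotation holds a near-identical copy of Il22, named Iltifb, and the counting may have split reads between them. Whether the Balb/c genome carries this copy was not examined, so the counts given for Iltifb may be reads of Il22. Iltifb was below the filter, with 6 counts over the calcitriol libraries and 89 over the vehicle libraries. The ratio of calcitriol to vehicle, allowing for depth, was 0.0701 (95% exact binomial interval 0.0250 to 0.159, counting error only), and a permutation test on CPM gave an unadjusted two-sided p of 0.00025. With the counts of both copies added, the log2 change was -2.54.

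Il24, the second IL-10 family member (ENSMUSG00000026420, chr1:130882074-130887454, minus strand), was far more abundant and was not called. It ran from 507 to 1497 CPM with calcitriol, with a median of 759, against 565 to 1176 CPM with vehicle, with a median of 776. The groups overlapped across nearly their whole range, at means of 859 ± 327 CPM with calcitriol and 836 ± 221 CPM with vehicle (SD, n = 11 each). A log2 change of 0.04 ± 0.19 was estimated, with a 95% interval of -0.35 to 0.43 and an adjusted p of 0.904 by edgeR's test. The spread followed replicates 1 and 2, at 1497 and 1406 CPM with calcitriol and 1176 and 1158 CPM with vehicle. Within these 4 libraries alone the log2 change was 0.32 ± 0.06 (adjusted p 0.000287 by edgeR's test), and without them it was -0.07 ± 0.14 (adjusted p 0.770), so the sign of the small difference was not fixed. The first p comes from 2 libraries per group, picked after seeing the data, and may reflect only the spread between like libraries.

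Il21, the B cell helper cytokine gene (ENSMUSG00000027718, chr3:37222759-37232636, minus strand), was likewise abundant and not called. It ran from 587 to 877 CPM with calcitriol, with a median of 727, against 607 to 978 CPM with vehicle, with a median of 756. The means of 714 ± 90.3 CPM with calcitriol and 761 ± 103 CPM with vehicle (SD, n = 11 each) differed by less than the spread. The log2 change was -0.09 ± 0.07, with a 95% interval of -0.24 to 0.06 and an adjusted p of 0.389 by edgeR's test. On the opposite strand the antisense gene Gm12534 overlaps Il21, and it averaged 68.6 ± 8.10 CPM with calcitriol and 39.8 ± 6.03 CPM with vehicle, a log2 change of 0.78 ± 0.08 (adjusted p 9.52e-09 by edgeR's test). The library kit keeps strand, but the strand setting of the counting is not given in the sources used here, so reads of Il21 and Gm12534 cannot be told apart with certainty.

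Lif and Osm are the gp130 cytokines with enough counts to test, and they lie 16.5 kb apart on the plus strand of chromosome 11. Lif (ENSMUSG00000034394, chr11:4257557-4272514) ran from 254 to 395 CPM with calcitriol, with a median of 348, against 243 to 327 CPM with vehicle, with a median of 304. In 7 of 11 calcitriol libraries it was above every vehicle library, and the other 4 lay within the vehicle range. Means were 335 ± 52.0 CPM with calcitriol and 292 ± 25.3 CPM with vehicle (SD, n = 11 each). The log2 change was 0.20 ± 0.07, at an adjusted p of 0.0406 by edgeR's test. This call was close to the threshold and was lost in 17 of 34 alternative settings, with an adjusted p up to 0.187, while the sign stayed positive in all 34.

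Osm (ENSMUSG00000058755, chr11:4236420-4241026) was not called, at an adjusted p of 0.0549 by edgeR's test. It ran from 46.8 to 99.9 CPM with calcitriol, with a median of 57.8, against 48.4 to 64.7 CPM with vehicle, with a median of 51.8. The 4 calcitriol libraries above every vehicle library were replicates 1 to 4, and replicates 1 and 2 were highest at 99.6 and 99.9 CPM. Vehicle replicates 1 and 2 had 51.2 and 53.2 CPM, near the vehicle median. The log2 change was 0.30 ± 0.12 over all libraries, 0.94 ± 0.11 within replicates 1 and 2 (adjusted p 2.70e-08 by edgeR's test) and 0.13 ± 0.09 without them (adjusted p 0.307). The p of 2.70e-08 comes from 2 libraries per group, picked after seeing the data. Calcitriol replicates 1 and 2 were most like each other and may share a source, so it may reflect only the spread between like libraries.

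**Figure D2:**
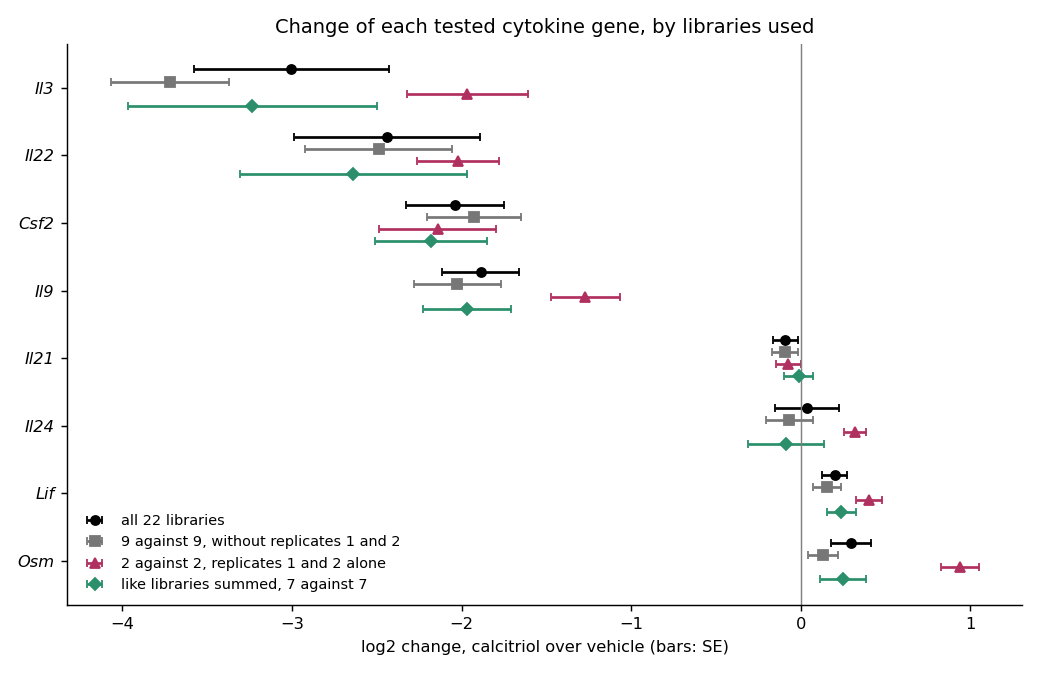
Log2 change (calcitriol over vehicle) of the 8 tested cytokine genes with SE bars, from all libraries and from 3 other choices of libraries: without replicates 1 and 2, replicates 1 and 2 alone, and sets of like libraries summed. Il3, Csf2, Il9 and Il22 lie left of 0 under each choice, Il24 crosses 0, and Osm moves from 0.13 to 0.94.

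Il6 and Il31 were near the limit of detection. Il6, the inflammatory gp130 cytokine gene (ENSMUSG00000025746, chr5:30013114-30019981), had 32 counts over all calcitriol libraries and 37 over all vehicle libraries, a ratio of 0.899 (95% exact binomial interval 0.542 to 1.48, counting error only). Il31, the itch cytokine gene (ENSMUSG00000029437, chr5:123480157-123489489), had 24 counts with calcitriol and 15 with vehicle, a ratio of 1.66 (0.837 to 3.41). Permutation tests on CPM gave unadjusted two-sided p-values of 0.663 for Il6 and 0.343 for Il31. The interval for Il31 was wide and includes equal levels, and Il31 had no count in 1 calcitriol library and 5 vehicle libraries. What size of change could be detected at these counts was not tested.

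Per kilobase of exon, the 10 genes spanned a wide range. Il24 was highest, at 620 ± 236 CPM per kilobase with calcitriol and 603 ± 160 with vehicle. Il21 followed at 136 ± 17.2 with calcitriol and 145 ± 19.6 with vehicle, then Lif at 77.1 ± 12.0 with calcitriol and 67.1 ± 5.82 with vehicle (SD, n = 11 each). These 3 were separated from each other by more than their SDs in both groups. The order of the next pair differed between groups: Osm had 29.2 ± 8.41 and Il9 15.1 ± 8.11 CPM per kilobase with calcitriol, whereas Osm had 23.5 ± 2.17 and Il9 53.0 ± 12.0 with vehicle. With vehicle, Il9 and Lif overlapped within their SDs, and with calcitriol Osm and Il9 did.

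Csf2, Il22 and Il3 formed a lower tier in which neighbours did not differ beyond their spread. With calcitriol they had 1.91 ± 0.91, 1.55 ± 1.66 and 1.04 ± 1.61 CPM per kilobase, and with vehicle 7.71 ± 3.68, 7.66 ± 6.68 and 6.78 ± 5.71. Il31 and Il6 were lowest, at 0.237 and 0.144 CPM per kilobase with calcitriol and 0.143 and 0.165 with vehicle. Il24, Il21, Lif and Osm together made up 97.8% of the summed per-kilobase level of the 10 genes with calcitriol and 91.8% with vehicle. The genes that fell were thus a small part of the total, and Il9 accounted for 1.67% of it with calcitriol and 5.88% with vehicle.

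**Figure D3:**
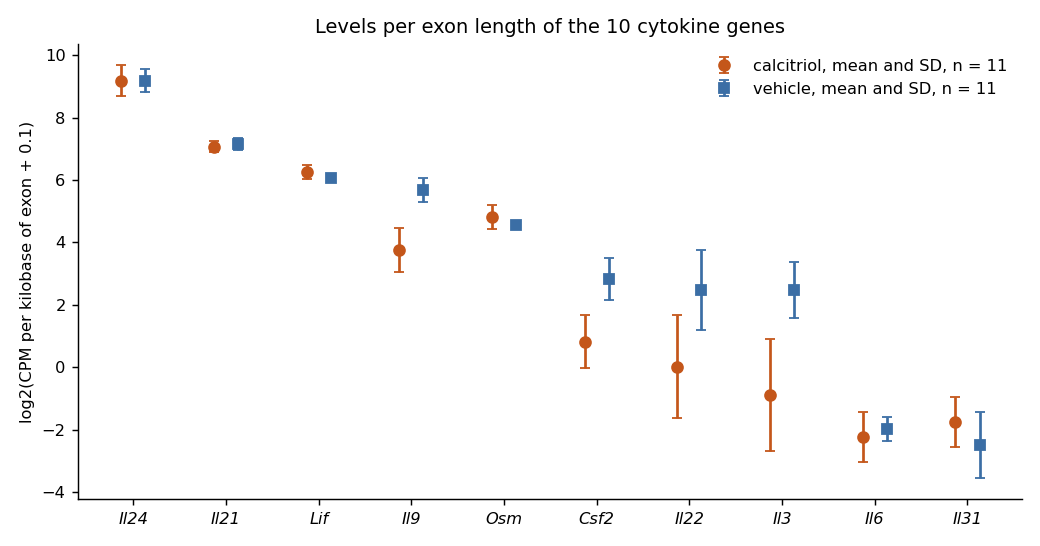
Level of each cytokine gene per exon length, as the mean and SD over 11 libraries of log2(CPM per kilobase of exon + 0.1), with calcitriol at the left of each pair and vehicle at the right. Il24, Il21 and Lif stand highest in both groups, and Il9 is above Osm with vehicle but below it with calcitriol.

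Whether Il3, Csf2 and Il9 varied together among libraries was examined on log2(CPM + 0.5) within each group, in 6 relations. Between Il3 and Csf2 in vehicle libraries, Pearson's r was 0.83 and Spearman's rho 0.84 (permutation p 0.00071 and 0.00248, adjusted over the 6 relations 0.00426 and 0.0149, n = 11). Without the 2 libraries farthest from the median, which were replicates 1 and 2, r was 0.67 (exact permutation p 0.0468, n = 9). Its adjusted permutation p was 0.281 over the 6 relations with replicates 1 and 2 of each group left out. The call at the adjusted threshold was thus lost without those libraries, at the smaller n, while Spearman's rho in vehicle was still 0.70. The other 5 relations did not pass: their r ran from 0.06 between Csf2 and Il9 with calcitriol to 0.57 between Il3 and Il9 with calcitriol (adjusted permutation p 0.859 and 0.195). Without the 2 libraries farthest from the Csf2 median, calcitriol replicates 3 and 9, r between Csf2 and Il9 with calcitriol was 0.70 (unadjusted exact permutation p 0.0318, n = 9), and without replicates 1 and 2 it was -0.24, so its value depends on single libraries.

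By the likeness of their residuals, after subtracting group means, over 22 libraries and among 10413 coding genes whose mean level reached 2 CPM, the genes most like Il3 were Nrp1 (r = 0.92), a co-receptor for semaphorins and VEGF, Ccn4 (r = 0.91), a secreted matricellular protein, and Grp (r = 0.90), the gastrin-releasing peptide. All 3 were called lower: Grp averaged 7.93 ± 7.81 CPM with calcitriol and 65.5 ± 46.9 CPM with vehicle, a log2 change of -3.22 ± 0.44, Ccn4 changed by -0.79 ± 0.15 and Nrp1 by -0.59 ± 0.20. Those most like Csf2 were Ddc (r = 0.84), aromatic amino acid decarboxylase, Mrpl42 (r = 0.81), a mitochondrial ribosomal protein, and Mpzl3 (r = 0.78). Ddc nevertheless changed in the opposite direction to Csf2, at 85.3 ± 9.24 CPM with calcitriol and 53.8 ± 12.7 CPM with vehicle (log2 change 0.67 ± 0.10, adjusted p 1.73e-05 by edgeR's test). Those most like Il9 were Rnf19b (r = 0.82), an E3 ubiquitin ligase, Atf3 (r = 0.81), a stress-induced factor, and Ikzf4 (r = 0.81), the Ikaros family factor Eos. Atf3 averaged 75.5 ± 24.2 CPM with calcitriol and 157 ± 11.9 CPM with vehicle, a log2 change of -1.07 ± 0.13. Ikzf4 averaged 9.59 ± 2.50 CPM with calcitriol and 20.2 ± 2.27 CPM with vehicle, a log2 change of -1.11 ± 0.11. These correlations share the replicates 1 and 2 that stood apart, and are given as a description.

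Of 17 receptor chains for the 10 cytokines, 9 were tested, 7 were called higher, 0 lower and 2 not called (Csf2ra at a log2 change of -0.11 and Il10rb at -0.17), with a median log2 change of 0.33, where 16.1% of all tested genes were called higher. At an unadjusted p under 0.05, 1 chain was lower in edgeR and also in DESeq2, and across alternative settings 6 to 8 were called higher and 0 to 2 lower. The filter shapes this count: Il20ra passed it through the calcitriol libraries, while Il9r and Osmr, with fewer counts under calcitriol, were left out, as were Lifr and Csf2rb, with more. In the fit without a filter, 8 of 16 chains were higher and 2 lower, where 3688 of 27301 genes were called. Il20ra, the chain through which IL-24 signals with Il20rb, ran from 4.59 to 22.2 CPM with calcitriol, with a median of 12.7, against 0.281 to 3.92 CPM with vehicle, with a median of 0.675. All 11 calcitriol libraries were above all vehicle libraries, as for 2.77% of all tested genes, at a log2 change of 3.75 ± 0.32 (adjusted p 1.45e-09 by edgeR's test). Its partner Il20rb, named here after its value was seen, had 2.29 ± 1.08 CPM with calcitriol and 1.26 ± 0.64 CPM with vehicle, a log2 change of 0.81 ± 0.28 (adjusted p 0.0277). The ligand gene Il24 was not called, so of this pair of ligand and receptor the transcripts of both chains rose without a called change of the ligand.

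Il2rg, the common gamma chain used by IL-9 and IL-21, had 246 to 302 CPM with calcitriol and 164 to 191 CPM with vehicle. The groups did not overlap, as for 2.77% of all tested genes in that direction, and the log2 change was 0.65 ± 0.04 (adjusted p 1.96e-12 by edgeR's test). Il21r, the specific chain for IL-21, averaged 565 ± 55.4 CPM with calcitriol and 472 ± 41.1 CPM with vehicle, a log2 change of 0.26 ± 0.06. Il6st, the gp130 chain, averaged 100.2 ± 13.3 CPM with calcitriol and 79.6 ± 12.7 CPM with vehicle, a log2 change of 0.33 ± 0.08. The remaining called chains were Il3ra and Il6ra. The chain Il22ra1, needed for a response to IL-22, had no count in any library, and the IL-9, LIF, oncostatin M and IL-31 specific chains and the beta chains Csf2rb and Csf2rb2 were below the filter.

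**Figure D4:**
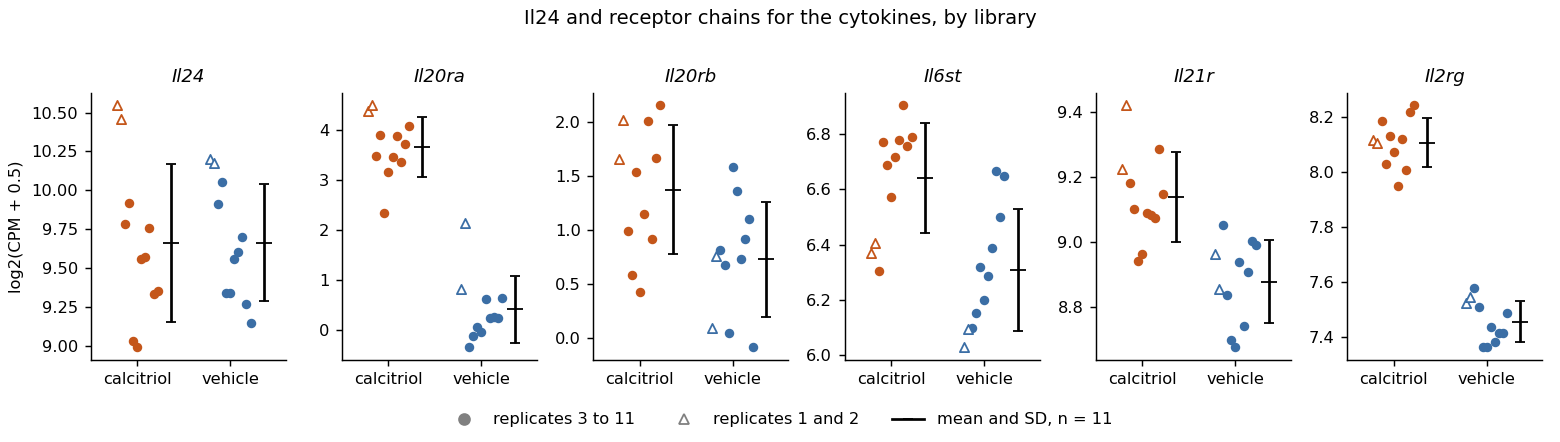
Il24 beside receptor chain genes for these cytokines in each library, as log2(CPM + 0.5), calcitriol at the left and vehicle at the right of each panel, triangles for replicates 1 and 2 and bars for the mean and SD. Il20ra and Il2rg separate the groups completely, whereas Il24 does not.

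Downstream of these receptors, the JAK-STAT list had 2 of 11 genes higher, 2 lower and 7 not called, with a median log2 change of -0.06, beside 16.1% higher and 15.5% lower among all tested genes. Jak2, the kinase bound to the beta chain of the IL-3 and GM-CSF receptors, averaged 2764 ± 175 CPM with calcitriol and 1774 ± 309 CPM with vehicle, a log2 change of 0.64 ± 0.07 (adjusted p 1.22e-07 by edgeR's test). Jak1 had a log2 change of 0.18 ± 0.05, a call lost with total-count scaling and within replicates 1 and 2. Stat4, the IL-12 responsive factor, changed by -0.45 ± 0.13, a call lost without replicates 1 and 2 and with like libraries summed, and Stat2, of the interferon pathway, by -0.16 ± 0.06, a call lost in 12 of 35 alternative settings. None of Stat3, Stat5a, Stat5b and Stat6 was called.

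Among 13 feedback inhibitors, 2 were higher, 5 lower and 6 not called, with a median log2 change of -0.13, beside the same 16.1% higher and 15.5% lower overall. Socs3, the inhibitor of gp130 signals, averaged 268 ± 35.8 CPM with calcitriol and 183 ± 39.6 CPM with vehicle, a log2 change of 0.54 ± 0.10. Socs6 also rose, by 0.26 ± 0.07 on the log2 scale, and within replicates 1 and 2 alone neither Socs6 nor Socs2 was called. Socs2, a STAT5-induced inhibitor, averaged 71.2 ± 10.2 CPM with calcitriol and 98.8 ± 16.4 CPM with vehicle, a log2 change of -0.47 ± 0.09. Ptpn6, the phosphatase SHP-1, changed by -0.27 ± 0.04 with all calcitriol libraries below all vehicle libraries, as for 1.59% of all tested genes.

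Of 29 listed factors known to act on these cytokine genes in T cells, 27 were tested, 8 were higher, 8 lower and 11 not called, with a median log2 change of 0.08, where 16.1% of all tested genes were higher and 15.5% lower. Bhlhe40, which mouse T cells need for GM-CSF production, averaged 118 ± 22 CPM with calcitriol and 333 ± 68.1 CPM with vehicle, a log2 change of -1.51 ± 0.12 (adjusted p 6.60e-10 by edgeR's test). Nfkb2, which encodes the NF-κB precursor p100, averaged 136 ± 11.2 CPM with calcitriol and 266 ± 26.1 CPM with vehicle, a log2 change of -0.97 ± 0.06. Both genes had all calcitriol libraries below all vehicle libraries, as for 1.59% of all tested genes. Maf, an activator of Il21 and Il10, averaged 185 ± 22.4 CPM with calcitriol and 101 ± 11.8 CPM with vehicle, a log2 change of 0.88 ± 0.07. Ets1, a lymphoid factor, averaged 878 ± 86.9 CPM with calcitriol and 547 ± 45.8 CPM with vehicle, a log2 change of 0.68 ± 0.06. Maf and Ets1 also separated the groups completely, with all calcitriol libraries above all vehicle libraries, as for 2.77% of all tested genes.

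Among 11 listed genes that act on the stability of cytokine messages, 1 rose, 1 fell and 9 were not called, with a median log2 change of 0.06. Among all tested genes 31.5% were called, and whether the share in so short a list differs from this was not tested. Zfp36 encodes tristetraprolin, which binds AU-rich elements such as those of Csf2 and speeds decay. It ran from 37.9 to 63.4 CPM with calcitriol and 30.1 to 40.1 CPM with vehicle, with 10 of 11 calcitriol libraries above all vehicle libraries and a log2 change of 0.60 (adjusted p 2.16e-06 by edgeR's test). Zc3h12a, the nuclease Regnase-1, averaged 6.46 ± 1.01 CPM with calcitriol and 8.19 ± 1.22 CPM with vehicle, a log2 change of -0.35, a call lost within replicates 1 and 2 alone. The part of either factor in the levels of the cytokine messages was not tested.

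Of 19 other cytokine genes listed, 12 were tested, 2 were higher, 7 lower and 3 not called, with a median log2 change of -0.34, where 16.1% of all tested genes were higher and 15.5% lower. Il2, the T cell growth factor, averaged 0.718 ± 0.27 CPM with calcitriol and 4.98 ± 1.70 CPM with vehicle, a log2 change of -2.78. Lta, lymphotoxin alpha, averaged 16.4 ± 10.7 CPM with calcitriol and 68.2 ± 11.5 CPM with vehicle, a log2 change of -2.13. Tnf averaged 21.4 ± 4.41 CPM with calcitriol and 52.8 ± 11.6 CPM with vehicle, a log2 change of -1.31. Il10, the anti-inflammatory cytokine, went the other way, at 521 ± 39.5 CPM with calcitriol and 191 ± 51.2 CPM with vehicle and a log2 change of 1.45. Of the TH2 signature cytokines, Il4 and Il5 were not called, and Il13 was called lower, at 203 ± 106 CPM with calcitriol and 333 ± 104 CPM with vehicle (log2 change -0.72, adjusted p 0.0204 by edgeR's test), with 8 of 11 calcitriol libraries below all vehicle libraries.

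The genes around the members were counted in each direction. Of 48 genes that are among the 3 nearest tested genes on either side of a member, members aside, 11 were higher and 9 lower, 41.7% called beside 31.5% of all tested genes. Il3 and Csf2 are 15.6 kb apart and no tested gene lies between them, and both fell. Farther out, Slc22a21 and Fnip1 were lower, at log2 changes of -0.70 and -0.32, and Rapgef6 and Cdc42se2 higher, at 0.38 and 0.49, so the decrease did not extend to all tested genes nearby. Around Il24, Il10 at a distance of 132 kb was the single called gene. Around Il21, Il2 at 96.8 kb was lower, while Gm12534, Gm43822, 4932438A13Rik and Cetn4 were higher, at log2 changes of 0.78, 0.68, 0.70 and 0.29.

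Near Il9, Smad5, a mediator of bone morphogenetic protein signals, was higher by 1.14 on the log2 scale and Klhl3, an adaptor of a ubiquitin ligase, had a log2 change of -1.43, at distances of 221 and 1518 kb. Near Il22, Mdm1, Dyrk2 and Cand1 were lower, at -0.51, -0.33 and -0.31. Near Lif and Osm, Castor1, an arginine sensor of the mTORC1 pathway, and Tbc1d10a were higher, at 0.78 and 0.28, and Ascc2 lower, at -0.20. Diablo near Il31 had a log2 change of -0.38 and Hadhb near Il6 of 0.28.

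**Figure D5:**
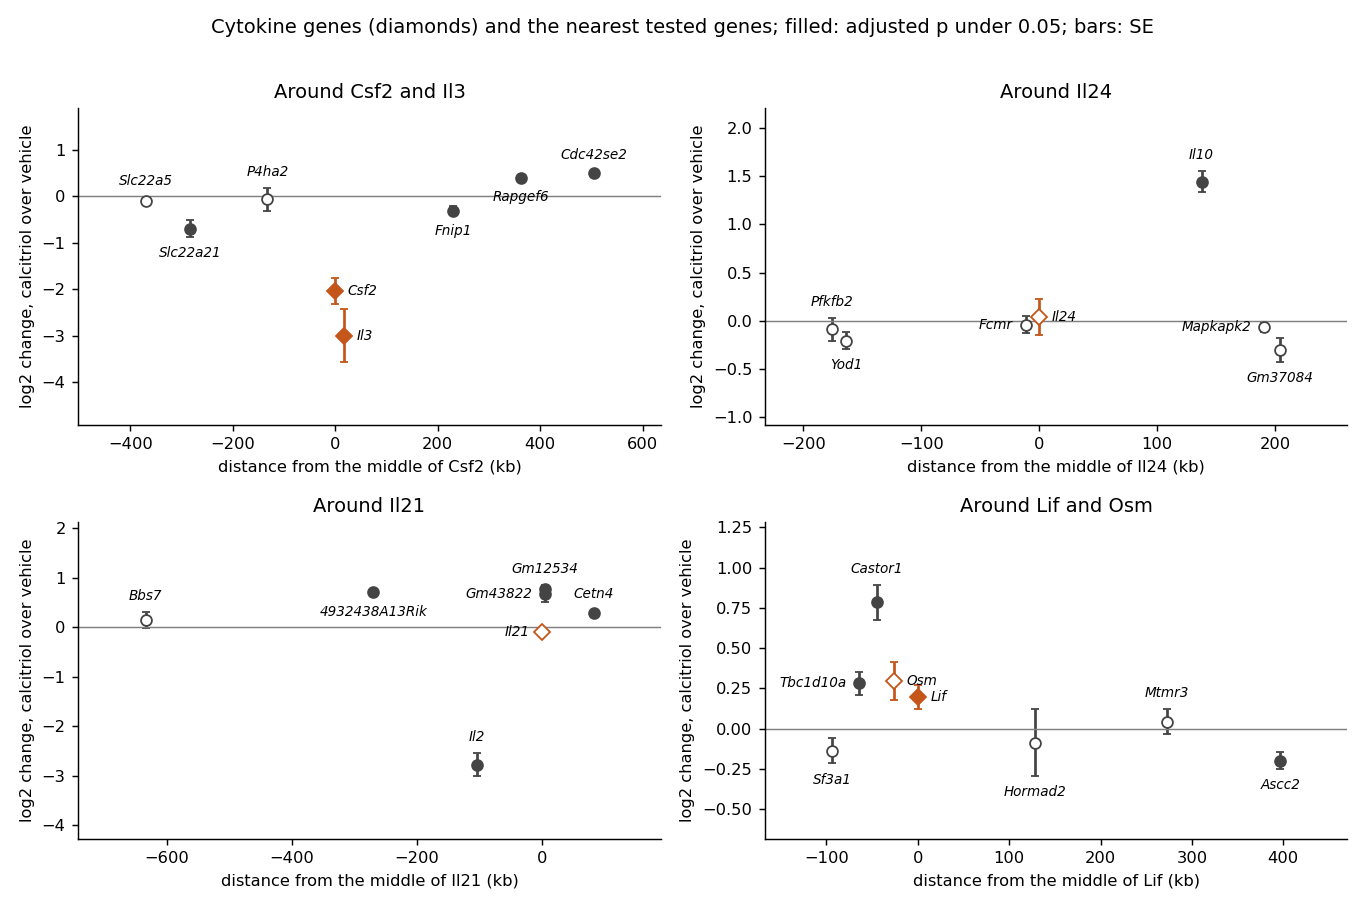
Log2 change (calcitriol over vehicle) with SE bars of cytokine genes (diamonds) and the nearest tested genes (circles) against distance in kb, with filled symbols for an adjusted p under 0.05. Il3 and Csf2 lie together at -3.00 and -2.04 with both higher and lower genes around them, and Il24 and Il21, not called, have Il10 at 1.45 and Il2 at -2.78 as neighbours.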

How the data were processed

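RNA was sequenced in 22 libraries of mouse TH2 cells, 11 with calcitriol and 11 with vehicle, made with a stranded total RNA kit, per the labels' protocols. The authors deposited raw counts per Ensembl gene, a column per library. The submitters' processing notes name HTSeq 0.13.5, STAR 2.7.10a and the build GRCm38; the sources used here do not give their roles, the annotation or the strand setting. Totals ran from 3214171 to 20258430 counts, so a gene at 1 CPM rests on few counts in the shallowest library.

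Symbols came from GENCODE M21. Genes were kept with filterByExpr of edgeR 4.0.16 (R 4.3.3), which left 11905, scaled by TMM and tested with the robust quasi-likelihood F test without covariates, with Benjamini-Hochberg adjustment at 0.05. CPM are TMM-scaled. Genes below the filter were compared by permutation of library labels (100000 resamples) and by an exact binomial interval for the ratio of summed counts, which covers counting error alone, because PCR copies cannot be told from separate molecules here. Relations used log2(CPM + 0.5). The test was checked on simulated counts. Alternatives were DESeq2 1.42.0, voom of limma 3.58.1, other scalings and filters, and leaving out libraries.

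Named genes were the 10 members, up to 4 genes of smallest p per list, called neighbours and the 3 genes most like Il3, Csf2 and Il9. The members and lists were chosen with earlier results of these data known.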

Additional observations from a re-analysis of the deposited data

How the results depend on the processing

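Across 34 alternative settings, Il3, Csf2, Il9 and Il22 stayed called lower in every setting, with adjusted p-values up to 0.00507, 0.000116, 5.01e-05 and 0.0108. The number of members called lower was 4 in all of them, and Il21 was not called in any. The number called higher was 1 as reported. It was 2 with DESeq2 and without robust dispersion, 0 with limma-voom, limma-voom with library quality weights, total-count scaling, replicates 1 and 2 left out, or sets of like libraries summed (1, 0, 0, 0 and 1 at an unadjusted p under 0.05), and 3 within replicates 1 and 2 alone, an alternative chosen after seeing the data, where 1710 genes were called beside 3755. Leaving out each library in turn gave 0 to 2 members higher.

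The log2 change of Il24 changed sign to -0.0067 with limma-voom, -0.035 with quality weights, -0.032 with total-count scaling, -0.067 without replicates 1 and 2 and -0.086 with sets summed, and ran from -0.072 to 0.098 when each library was left out. The cause was not tested. Total-count scaling called 1319 genes higher and 2878 lower, against 1911 and 1844 with TMM. Without replicates 1 and 2 (added after seeing the data), r between Il3 and Csf2 was -0.19 with calcitriol and 0.67 with vehicle, and r between Csf2 and Il9 with calcitriol -0.24. By the longest transcript, Il21 had 233 CPM per kilobase with calcitriol and 248 with vehicle.

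No paired analysis was possible because the labels give no replicate numbers or sources that link libraries, and the numbers used here only name them. Depth limits Il3, Il6 and Il31 most, with 44, 32 and 24 counts over the calcitriol libraries.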

Other observations

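Several receptor chains for these cytokines were below the low-count filter and had no quasi-likelihood result in the main fit, so their summed counts are given as values. In the fit without a filter, 16 chains were tested, with 8 called higher and 2 lower. There, 3688 of all 27301 genes tested were called, 1940 higher and 1748 lower. Over all libraries of each group, Csf2rb, the shared beta chain for IL-3 and GM-CSF, had 40 counts with calcitriol and 14 with vehicle. Lifr had 104 counts with calcitriol and 39 with vehicle. Osmr had 56 counts with calcitriol and 116 with vehicle, and Il9r had 89 counts with calcitriol and 158 with vehicle.

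Among genes that mark other cell types, some differed between the groups, in both directions. Gzma, a granzyme on the natural killer cell list, averaged 77.8 ± 43.0 CPM with calcitriol and 8.80 ± 7.77 CPM with vehicle, while Ncr1 of the same list had no count in any library. Ly6g, of the neutrophil list, averaged 2.16 ± 0.57 CPM with calcitriol and 0.191 ± 0.13 CPM with vehicle, with S100a9 at 0 counts. Epcam, an epithelial adhesion gene, averaged 22.2 ± 4.99 CPM with calcitriol and 9.74 ± 3.28 CPM with vehicle. Krt18, the other tested gene of that list of 5, averaged 8.61 ± 1.46 CPM with calcitriol and 10.1 ± 1.88 CPM with vehicle and was not called (adjusted p 0.116 by edgeR's test). Zbtb46, 1 of 2 tested genes of the dendritic cell list of 6, was called lower, at 2.59 ± 0.88 CPM with calcitriol and 4.68 ± 0.87 CPM with vehicle, a call lost within replicates 1 and 2 alone, and Clec9a of that list had no count. On the macrophage and monocyte list the 1 tested gene, Cd68, averaged 8.12 ± 2.52 CPM with calcitriol and 6.02 ± 1.64 CPM with vehicle and was not called (adjusted p 0.0541 by edgeR's test), though its call changed in 12 of 35 alternative settings. Their part in the cytokine results was not tested.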
